A study of Mus musculus with 6 samples.

Results

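The genes described here encode the translation initiation factors of the mouse, the proteins that bring a ribosome, the initiator tRNA and an mRNA together. They were chosen by name, as all annotated genes whose symbol starts with Eif and a digit from 1 to 6, without the eIF4E-binding protein gene Eif4ebp1 and without pseudogenes. Of 43412 annotated genes 55 met this rule. No measured value entered the choice. Of these 55 genes 52 reached a mean of 1 TPM (the level of a gene's transcripts among all transcripts, corrected for their length) and were tested among 13749 genes. The others were listed at 0 in all libraries: Eif2s3y on the Y chromosome, Eif4e1b, and Eif2c5, a long noncoding RNA that carries the prefix by name only.

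The RNA came from GC-2spd cells, a line that was made by immortalizing spermatocytes of the mouse. Hypoxia-treated cells were kept at 1% O2 in a hypoxia workstation (3 libraries), and normoxic cells at 21% O2 in an incubator (3 libraries). All libraries came from this 1 line, with a C57BL/6J background and testis as its tissue in the labels, and were grown in DMEM with serum and antibiotics. The paper describes no introduced allele and does not say how the line was immortalized. Culture of this hypoxia model at 1% O2 lasted 48 h, a time that the labels do not repeat for these libraries. Whether the replicates were grown as separate cultures is not said, so the p-values measure only the spread between these libraries, which may be technical.

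Initiation starts when eIF2 carries the initiator tRNA to the small ribosomal subunit together with eIF1, eIF1A, eIF3 and eIF5, while the eIF4 factors bind the cap of the mRNA and unwind its leader. The recognition of a start codon releases eIF2 with its GTP hydrolysed, eIF2B reloads it, and eIF5B joins the large subunit. Cells slow this process under stress mainly at 2 points, the phosphorylation of eIF2 by its kinases and the capture of eIF4E by its binding proteins. Both act on proteins, and the values below are levels of mRNA.

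Hypoxia-treated libraries held 5.80 to 6.72 gigabases of aligned sequence and normoxic libraries 5.75 to 6.61, as worked out from coverage and FPKM. Annotated genes fell short of 1000000 TPM by 2.30% to 5.17% in hypoxia-treated libraries and 1.86% to 2.75% in normoxic libraries. This remainder was taken as transcripts outside annotated genes and was not measured directly. Separate entries for loci assembled from the reads summed to 1000000 TPM on their own in each library and were not used. Of the annotated TPM mitochondrially encoded genes took 5.55% ± 0.058 in hypoxia-treated cells and 9.27% ± 0.022 in normoxic cells (SD, n = 3 each). All 10 genes of a list of known hypoxia targets were higher at 1% O2, among them Ero1l, an oxidase of the endoplasmic reticulum, with 603 ± 9.11 TPM in hypoxia-treated cells and 45.5 ± 1.48 TPM in normoxic cells (SD, n = 3 each, adjusted p = 1.23e-07 from limma). The labelled cell type was not borne out by its defining markers. None of 5 germ cell, 6 meiosis and 6 spermatid genes reached a mean of 1 TPM, and the germ cell genes summed to 0.201 to 0.526 TPM in hypoxia-treated libraries and 0.139 to 0.468 TPM in normoxic libraries, with Mael, Tex101 and Stra8 at 0 throughout. The collagen gene Col1a1, on the list of fibroblast and myoid markers, stood at 1720 ± 47.95 TPM in hypoxia-treated cells and 1161 ± 53.8 TPM in normoxic cells (SD, n = 3 each). That list summed to 2721 to 2976 TPM in hypoxia-treated libraries and 2283 to 2354 TPM in normoxic libraries, with Thy1 at 0. Almost all of that sum was Col1a1, which was called higher, and Col1a2 at 1138 ± 189 TPM in hypoxia-treated cells and 1123 ± 25.8 TPM in normoxic cells (SD, n = 3 each), which was not called. Pdgfrb, for a receptor of platelet-derived growth factor, was lower at 1.45 ± 0.185 TPM in hypoxia-treated cells and 6.62 ± 0.207 TPM in normoxic cells (SD, n = 3 each; log2 fold change −1.64, standard error 0.11, adjusted p = 4.58e-05 from limma), Col3a1 was near 1 TPM and not called, and neither was Acta2 (−0.06). Of 6 Sertoli markers 4 were tested, and Sox9 was called higher and Clu lower (Clu not with median-ratio scaling). Clu stood at 190 ± 23.7 TPM in hypoxia-treated cells and 240 ± 27.4 TPM in normoxic cells (SD, n = 3 each). Gata4, at means of 33.8 and 39.9 TPM in the same order, and Rhox5 were not called. Of 5 Leydig markers 2 were tested, and Insl3 was called higher (log2 fold change 1.25) while Star was not called (−0.18). Cyp11a1, with a mean under 1 TPM and untested, went the other way without overlap. It was at 0.052 ± 0.0245 TPM in hypoxia-treated cells and 0.848 ± 0.439 TPM in normoxic cells (SD, n = 3 each). No cell type was assigned from these lists. The part of these markers in the results below was not tested. In such bulk libraries a change in the RNA of every cell and a change in the kinds of cells cannot be told apart.

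Hypoxia-treated cells had more mRNA of 8 and less mRNA of 22 of the 52 tested initiation factor genes, at an adjusted p under 0.05 from limma on log2(TPM + 1), the scale of every fold change below. Over all tested genes 54.0% were called, 17.9% higher and 36.1% lower, and over tested protein-coding genes 57.8%, 17.8% higher and 40.1% lower. The corresponding shares of the initiation factor genes were 57.7%, 15.4% and 42.3%, close to those over protein-coding genes. Values of the groups did not overlap for 34 of the 52 genes (65.4%), against 66.5% of tested protein-coding genes and 62.4% of all tested genes. The median log2 fold change was −0.17 over the 52 genes and −0.13 over all tested genes. With median-ratio scaling of the libraries, under which the median over all tested genes moved to 0.00, 14 initiation factor genes were higher and 17 lower, and over all tested genes 3607 were higher and 3613 lower in place of 2463 and 4967. None of the 30 called genes changed direction under the 17 alternative settings, and 22 of them were called under every one. The summed level of the 55 genes was 8841 ± 271 TPM in hypoxia-treated cells and 8758 ± 136 TPM in normoxic cells (SD, n = 3 each), with ranges that overlapped. The genes are described below factor by factor.

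**Figure D1:**
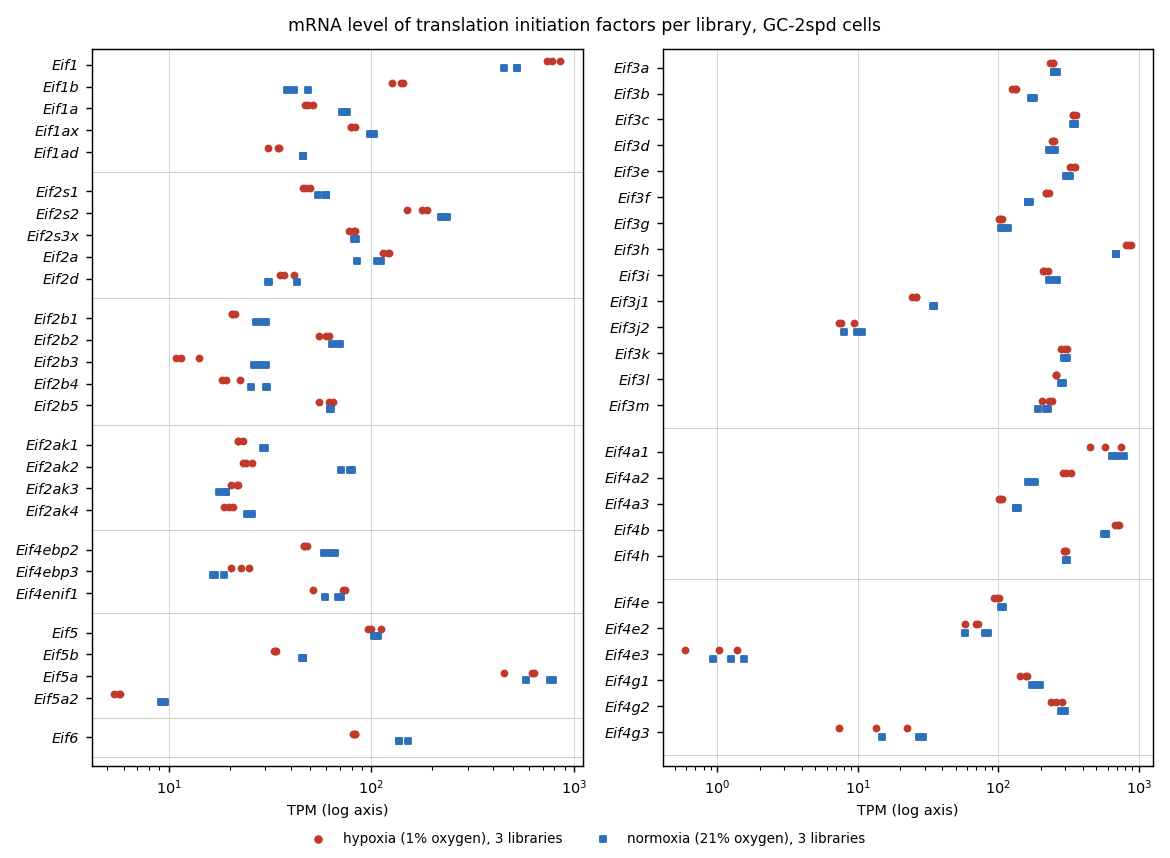
TPM of the 52 tested initiation factor genes in each library, on a log axis, with the hypoxia-treated libraries as circles and the normoxic libraries as squares, grouped by factor. Levels ran from Eif4e3, the lowest, to Eif3h, the highest, and Eif1b, Eif2ak2, Eif2b3, Eif4a2 and Eif6 had groups set well apart.

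The genes of eIF1 and eIF1A, which open the small subunit for scanning and police the choice of the start codon, moved in opposite directions. Eif1 and its close paralog Eif1b rose, and Eif1a, Eif1ax and Eif1ad fell. Eif1b (ENSMUSG00000006941, chromosome 9 of mm10 from 120492606 to 120495327) had 127, 143 and 141 TPM in hypoxia-treated cells, against 48.6, 41.7 and 38.2 TPM in normoxic cells. Every hypoxia-treated library stood above every normoxic library, and the mean level was 3.19 times as high (log2 fold change 1.66, standard error 0.09, adjusted p = 2.59e-05 from limma), the largest log2 increase among the 52 genes. Of the exonic bases of Eif1b 12.7% overlap D830035M03Rik on the opposite strand, a gene whose level was not listed. Eif1 (ENSMUSG00000035530, chromosome 11 of mm10 from 100319885 to 100322096), the more abundant of the pair, had 738, 778 and 854 TPM in hypoxia-treated cells, against 520.1, 522 and 452 TPM in normoxic cells. Its groups were also apart (log2 fold change 0.66, standard error 0.08, adjusted p = 0.000448 from limma). The share of Eif1 in the summed level of Eif1 and Eif1b was 85.2% ± 0.724 in hypoxia-treated cells and 92.1% ± 0.584 in normoxic cells (SD, n = 3 each). In an exact permutation test of this share the 2-sided p was 0.1, the smallest that 3 libraries against 3 allow. Part of the Eif1 transcripts, 15.3% of their 75-base windows, recurs in other annotated genes, of which the pseudogene Gm10157 was the one sharing most. Its level was 41.7 ± 0.477 TPM in hypoxia-treated cells and 24.3 ± 3.98 TPM in normoxic cells (SD, n = 3 each), and with the pseudogenes added to Eif1 the log2 fold change of Eif1 was 0.66.

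Eif1a and Eif1ax encode near-identical forms of eIF1A, which promotes the binding of the initiator tRNA and the scanning of the leader. Eif1a had 47.0, 48.7 and 51.8 TPM in hypoxia-treated cells, against 75.7, 74.3 and 71.5 TPM in normoxic cells (log2 fold change −0.58, standard error 0.05, adjusted p = 0.000181 from limma). Eif1ax, on the X chromosome, had 82.7, 79.0 and 79.3 TPM in hypoxia-treated cells, against 102, 103 and 98.9 TPM in normoxic cells (log2 fold change −0.33, standard error 0.04, adjusted p = 0.000719 from limma). In both genes all hypoxia-treated libraries were below all normoxic ones. The share of the X-linked copy in their sum was 62.0% ± 1.64 in hypoxia-treated cells and 57.9% ± 0.299 in normoxic cells (SD, n = 3 each; exact permutation p = 0.1, 2-sided). Eif1ad, a gene named for an eIF1A-like domain, had 31.1, 34.9 and 34.8 TPM in hypoxia-treated cells, against 46.1, 46.0 and 46.0 TPM in normoxic cells (log2 fold change −0.44, standard error 0.06, adjusted p = 0.000933 from limma), but 15.3% of its exonic bases overlap the more abundant Banf1 on the opposite strand, and the sources used here do not say whether strand was used in the counting.

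The promoters of the genes with the largest log2 increases are shown here because the hypoxia-inducible factors bind a core of ACGTG or GCGTG. The 250 bases before the RefSeq start are given (GRCm38.p6, plus strand, from chr9:120492356-120492605 for Eif1b, chr11:100319699-100319948 for Eif1 and chr16:23107218-23107467 for the helicase gene Eif4a2), with the core in capitals on either strand.
Eif1b: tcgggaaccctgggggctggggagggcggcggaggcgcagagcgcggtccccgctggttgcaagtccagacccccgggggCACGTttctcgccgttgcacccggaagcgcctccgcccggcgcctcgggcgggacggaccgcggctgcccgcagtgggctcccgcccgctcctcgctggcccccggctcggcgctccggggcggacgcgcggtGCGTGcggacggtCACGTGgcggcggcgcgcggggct
Eif1: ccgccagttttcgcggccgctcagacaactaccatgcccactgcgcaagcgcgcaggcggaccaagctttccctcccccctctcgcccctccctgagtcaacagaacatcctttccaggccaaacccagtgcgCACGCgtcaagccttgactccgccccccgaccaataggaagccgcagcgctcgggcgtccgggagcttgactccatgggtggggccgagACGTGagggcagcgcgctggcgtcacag
Eif4a2: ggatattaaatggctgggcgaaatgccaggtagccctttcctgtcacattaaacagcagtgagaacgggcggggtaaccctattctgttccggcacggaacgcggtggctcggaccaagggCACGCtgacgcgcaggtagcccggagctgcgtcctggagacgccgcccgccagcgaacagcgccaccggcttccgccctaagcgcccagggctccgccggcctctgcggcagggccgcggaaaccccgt
The capitals form 3 runs in Eif1b, 2 in Eif1 and 1 in Eif4a2, and a run of 6 letters, CACGTG, is an E-box that holds the core on both strands. The core is common. RefSeq promoter windows of 250 bases before to 50 after the start were matched for 44 of the 55 genes and searched on both strands, and the core was found in 75.4% of their 57 windows, in 63.0% of 11697 windows of tested genes and in 43.8% of all 32851 windows. By call, it was found for 4 of 6 higher genes with a window, for 16 of 18 lower genes and for 14 of 18 genes not called. CACGTG was in 21.1% of the initiation factor windows and in 10.0% of those of tested genes, and TGATGNAA, the element bound by ATF4, in 1.8% and 2.0%. These matches are descriptions of letters and not of bound sites.

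Of the 3 subunits of eIF2, which forms the ternary complex with GTP and the initiator tRNA, 2 were called lower and Eif2s3x was not called. Eif2s1 encodes the alpha subunit that the eIF2 kinases phosphorylate. It had 47.6, 50.04 and 46.1 TPM in hypoxia-treated cells, against 59.6, 59.6 and 54.7 TPM in normoxic cells (log2 fold change −0.27, standard error 0.06, adjusted p = 0.00719 from limma), and the call was lost with median-ratio scaling (−0.13, adjusted p = 0.132 from limma) and with quantile normalization (−0.16, adjusted p = 0.0781). Eif2s2, for the beta subunit, had 151, 178 and 188 TPM in hypoxia-treated cells, against 223, 237 and 219.8 TPM in normoxic cells (log2 fold change −0.40, standard error 0.08, adjusted p = 0.00648 from limma), with no overlap between the groups. The pseudogene Gm9892, which shares 7.9% of the windows of Eif2s2, also fell (log2 fold change −0.30). Eif2s3x, for the gamma subunit that binds GTP and tRNA, had 77.2, 82.4 and 83.0 TPM in hypoxia-treated cells, against 82.0, 84.5 and 82.7 TPM in normoxic cells, and these groups overlapped (log2 fold change −0.04, adjusted p = 0.514 from limma). Its level is uncertain because 34.2% of its windows recur in the pseudogene Gm2223. The Y-linked copy Eif2s3y was listed at 0 in all 6 libraries.

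Eif2a and Eif2d encode single-chain factors that can place a tRNA on the ribosome without eIF2. Eif2a stood at 119 ± 3.79 TPM in hypoxia-treated cells and 101 ± 13.7 TPM in normoxic cells (SD, n = 3 each) and did not pass the test (log2 fold change 0.25, standard error 0.10, adjusted p = 0.0716 from limma), although its groups did not overlap and 4 alternatives called it higher, from 0.28 (adjusted p = 0.0402) among protein-coding genes only to 0.39 (adjusted p = 0.0145) with median-ratio scaling, the fit without normoxic library 1 among them (0.32, adjusted p = 0.0394). Eif2d, at 38.0 ± 3.08 TPM in hypoxia-treated cells and 35.0 ± 6.82 TPM in normoxic cells (SD, n = 3 each), had overlapping groups and was not called (log2 fold change 0.13, standard error 0.13, adjusted p = 0.447 from limma). Without normoxic library 3 it was called higher (0.28, adjusted p = 0.0348), and with any other library left out its value lay between 0.05 and 0.18 and was not called.

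eIF2B, the exchange factor that reloads eIF2 with GTP, had 4 of its 5 subunit mRNAs lower and none higher in the limma test, nor at an unadjusted p under 0.05, where the lower ones were 4. Over all tested genes the share at this unadjusted threshold was not counted, and it cannot be below the 54.0% called after adjustment. The largest fall was in Eif2b3 (ENSMUSG00000028683, chromosome 4 of mm10 from 117019402 to 117087306), which encodes the gamma subunit, a partner of the catalytic epsilon subunit. It had 11.5, 14.2 and 10.9 TPM in hypoxia-treated cells, against 30.1, 28.3 and 26.3 TPM in normoxic cells. The highest hypoxia-treated library was below the lowest normoxic library, and the mean ratio was 0.432 (log2 fold change −1.15, standard error 0.11, adjusted p = 0.000179 from limma). Eif2b1 and Eif2b4 encode the alpha and delta subunits, which with beta form the part of eIF2B that senses phosphorylated eIF2. Eif2b1 had 20.9 ± 0.416 TPM in hypoxia-treated cells and 28.9 ± 1.71 TPM in normoxic cells (SD, n = 3 each; log2 fold change −0.45, standard error 0.06, adjusted p = 0.00112 from limma). Eif2b4 had 20.1 ± 2.17 TPM in hypoxia-treated cells and 28.7 ± 2.83 TPM in normoxic cells (SD, n = 3 each; log2 fold change −0.50, standard error 0.10, adjusted p = 0.00608 from limma), and 7.8% of its exonic bases overlap Snx17 on the opposite strand. In both genes the groups did not overlap. Eif2b2, for beta, was called lower (−0.19, adjusted p = 0.0392 from limma), but this call was lost under 9 of the 17 alternative settings, among them the fits without hypoxia-treated library 1 or 2 and without normoxic library 1 or 3, with adjusted p-values up to 0.112. Eif2b5, for the catalytic epsilon subunit, had 64.4, 55.1 and 61.9 TPM in hypoxia-treated cells, against 62.7, 63.0 and 62.7 TPM in normoxic cells, with overlapping groups (log2 fold change −0.06, adjusted p = 0.489 from limma). Within the summed eIF2B mRNA the gamma subunit held 7.10% ± 1.36 in hypoxia-treated cells and 13.1% ± 0.956 in normoxic cells, and the epsilon subunit 35.0% ± 1.52 in hypoxia-treated cells and 29.1% ± 1.12 in normoxic cells (SD, n = 3 each; exact permutation p = 0.1 for each, 2-sided). Shares within a sum depend on each other, and a drop of one raises the rest.

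The 4 eIF2 kinases phosphorylate the alpha subunit of eIF2 in response to different stresses, and their mRNAs were 1 higher and 3 lower. Eif2ak2 (ENSMUSG00000024079, chromosome 17 of mm10 from 78852564 to 78882573) encodes PKR, the kinase that binds double-stranded RNA and is itself induced by interferon. It had 24.2, 25.8 and 23.4 TPM in hypoxia-treated cells, against 80.2, 70.9 and 78.7 TPM in normoxic cells. The hypoxia-treated libraries lay close together and far below the normoxic ones, at 0.319 times their mean (log2 fold change −1.61, standard error 0.07, adjusted p = 8.3e-06 from limma), which was the largest log2 fall among the 52 genes. Many interferon-responsive genes carry the letters GAAA 2 times with 2 bases between them, and this pattern, chosen after the values were seen, is found in the Eif2ak2 window beginning 19 bases after the RefSeq start. It is shown with its flanks, in capitals, from the minus strand of chr17:78882535-78882564 (GRCm38.p6).
Eif2ak2: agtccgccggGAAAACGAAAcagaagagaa
The pattern was in 4 of the 57 initiation factor windows (7.0%, for Eif2ak2, Eif2s1, Eif2s3x and Eif3a) and in 3.0% of the windows of tested genes, and its presence says nothing about what was bound there.

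Eif2ak1 encodes HRI, the kinase that senses heme. It had 22.1, 23.3 and 21.9 TPM in hypoxia-treated cells, against 29.3, 29.5 and 29.9 TPM in normoxic cells (log2 fold change −0.38, standard error 0.05, adjusted p = 0.00108 from limma), and 8.6% of its exonic bases overlap Aimp2 on the opposite strand. Eif2ak4 encodes GCN2, which senses uncharged tRNA, and had 18.9, 19.9 and 20.7 TPM in hypoxia-treated cells, against 25.9, 25.2 and 24.4 TPM in normoxic cells (log2 fold change −0.33, standard error 0.06, adjusted p = 0.00383 from limma). In both genes the groups did not overlap. Eif2ak3 encodes PERK, the kinase of the endoplasmic reticulum, and was the exception, with 21.9, 22.0 and 20.4 TPM in hypoxia-treated cells, against 19.2, 17.7 and 19.3 TPM in normoxic cells. Its call lay at the threshold (log2 fold change 0.18, standard error 0.07, adjusted p = 0.0497 from limma) and was lost under 9 of the 17 alternative settings, 5 of which left out 1 library (any normoxic library, or hypoxia-treated library 1 or 2). The values stayed positive, and the highest adjusted p was 0.137. Of the exonic bases of Eif2ak3 8.0% overlap Gm43292 on the opposite strand, a gene whose level was not listed.

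The order of the kinase mRNAs differed between the groups. In normoxic cells Eif2ak2 was the most abundant, followed by Eif2ak1, Eif2ak4 and Eif2ak3, with no overlap between neighbours. In hypoxia-treated cells Eif2ak2, Eif2ak1, Eif2ak3 and Eif2ak4 followed each other at 24.5 ± 1.21, 22.4 ± 0.766, 21.4 ± 0.916 and 19.8 ± 0.922 TPM (SD, n = 3 each), and of these neighbours Eif2ak1 and Eif2ak3, and Eif2ak3 and Eif2ak4, had overlapping ranges. Of the summed kinase mRNA PKR took 27.7% ± 0.624 in hypoxia-treated cells and 51.0% ± 1.34 in normoxic cells, and PERK 24.3% ± 0.796 in hypoxia-treated cells and 12.5% ± 0.147 in normoxic cells. HRI took 25.5% ± 0.144 in hypoxia-treated cells and 19.7% ± 0.830 in normoxic cells, and GCN2 22.5% ± 1.26 in hypoxia-treated cells and 16.8% ± 0.769 in normoxic cells (SD, n = 3 each). Each of these shares was separated between the groups (exact permutation p = 0.1, 2-sided, the smallest possible). They depend on each other, and the shares of HRI and GCN2 rose although their mRNAs fell. In TPM, PKR had means of 24.5 in hypoxia-treated cells and 76.6 in normoxic cells, and PERK 21.4 and 18.7 in the same order. The sum itself was 88.2 ± 2.51 TPM in hypoxia-treated cells and 150.1 ± 5.95 TPM in normoxic cells.

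**Figure D2:**
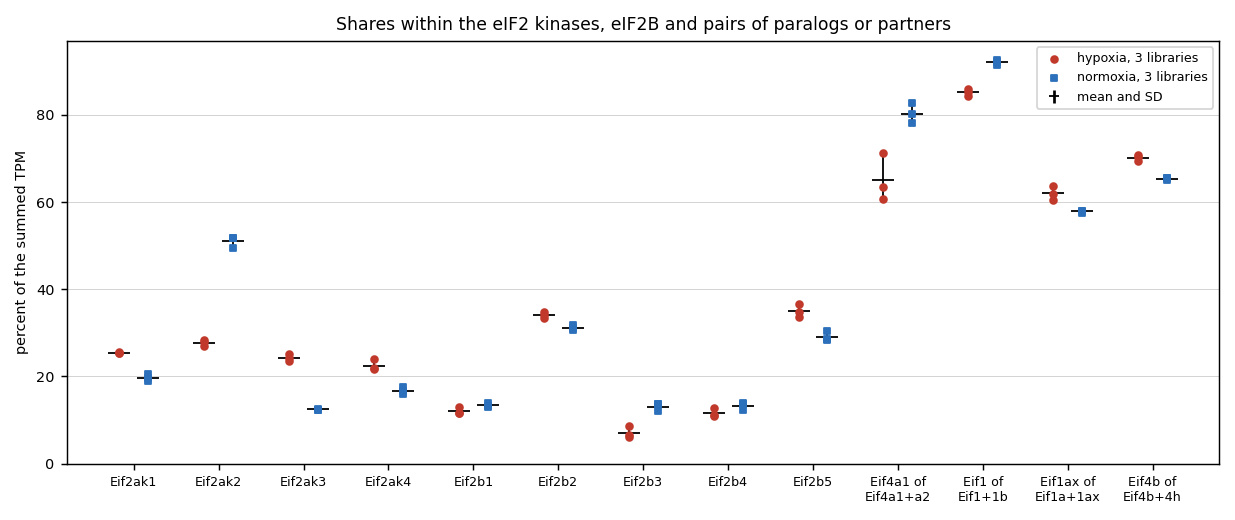
Percent of the summed TPM held by each eIF2 kinase, each eIF2B subunit and 1 gene of 4 pairs, in the 3 hypoxia-treated libraries (circles) and the 3 normoxic libraries (squares), with mean and SD. Eif2ak2 held 27.7% of the kinase sum in hypoxia-treated cells and 51.0% in normoxic cells, and Eif4a1 held 65.2% of its pair in hypoxia-treated cells and 80.3% in normoxic cells.

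eIF3, the largest initiation factor, holds the small subunit, the ternary complex and eIF4G together. Its 14 genes had 2 higher, 4 lower and 8 not called, and this split depended on the scaling, with 6 higher and 2 lower after median-ratio scaling and 1 higher and 4 lower after quantile normalization. Eif3h (ENSMUSG00000022312, chromosome 15 of mm10 from 51786558 to 51865481) and Eif3f, which encode the MPN-domain subunits of the complex, were the higher ones. Eif3h, the most abundant of the 52 genes by mean TPM, had 815, 880.2 and 856 TPM in hypoxia-treated cells, against 689, 688 and 684 TPM in normoxic cells (log2 fold change 0.31, standard error 0.04, adjusted p = 0.000588 from limma). The groups were apart, but the call was lost with quantile normalization (0.11, adjusted p = 0.109). Eif3f had 218, 229 and 219.9 TPM in hypoxia-treated cells, against 163, 163 and 168 TPM in normoxic cells (log2 fold change 0.43, standard error 0.04, adjusted p = 0.000147 from limma) and was called under all alternatives.

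Of the conserved core of eIF3, Eif3b, which encodes the scaffold of the b, g and i module, was lower, with 131, 126 and 134 TPM in hypoxia-treated cells, against 179, 169.9 and 174 TPM in normoxic cells (log2 fold change −0.42, standard error 0.04, adjusted p = 0.000255 from limma). Eif3i, for its WD40 partner, had 216 ± 10.1 TPM in hypoxia-treated cells and 249.8 ± 16.2 TPM in normoxic cells (SD, n = 3 each; log2 fold change −0.21, standard error 0.06, adjusted p = 0.0237 from limma), and lost its call under 7 alternatives, including the fits without hypoxia-treated library 1 or 3 and without normoxic library 1 or 2. Eif3a, Eif3c and Eif3g completed the core and were not called, with log2 fold changes of −0.07, −0.0022 and −0.08. Eif3l, for a subunit of the periphery, had 257 ± 0.659 TPM in hypoxia-treated cells and 286 ± 4.68 TPM in normoxic cells (SD, n = 3 each; log2 fold change −0.15, standard error 0.03, adjusted p = 0.00784 from limma) and a value of 0.00 with median-ratio scaling. Eif3d, for a subunit that can bind caps, Eif3e, Eif3k and Eif3m were not called, with log2 fold changes from −0.03 to 0.12. Median-ratio scaling called Eif3c, Eif3d, Eif3e and Eif3k higher, and Eif3e was also called higher without hypoxia-treated library 1 (0.15, adjusted p = 0.0384) and among protein-coding genes only (0.15, adjusted p = 0.017). Eif3a was called lower on FPKM (−0.13, adjusted p = 0.0198) and without mitochondrially encoded genes (−0.11, adjusted p = 0.0451).

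Eif3j1 and Eif3j2 encode the loosely bound j subunit and share sequence, 35.0% of the windows of Eif3j1 recurring in Eif3j2 and 87.4% of those of Eif3j2 in Eif3j1, so reads could not be divided between them with certainty. Eif3j1 had 24.5, 26.2 and 25.9 TPM in hypoxia-treated cells, against 34.9, 35.1 and 34.6 TPM in normoxic cells (log2 fold change −0.43, standard error 0.05, adjusted p = 0.000557 from limma), a call lost when the pseudogene Gm3650 was added (−0.31, adjusted p = 0.0633). Its exons also overlap Spg11 on the opposite strand over 19.0% of their bases. Eif3j2 stood at 8.12 ± 1.14 TPM in hypoxia-treated cells and 9.55 ± 1.35 TPM in normoxic cells (SD, n = 3 each), with overlapping groups. The share of the pair in the eIF3 mRNA was 0.961% ± 0.0343 in hypoxia-treated cells and 1.31% ± 0.0287 in normoxic cells (SD, n = 3 each; exact permutation p = 0.1, 2-sided).

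As shares of the summed eIF3 mRNA, which do not depend on the scaling of a library, Eif3h held 24.2% ± 0.209 in hypoxia-treated cells and 20.3% ± 0.294 in normoxic cells, and Eif3f 6.34% ± 0.0919 in hypoxia-treated cells and 4.87% ± 0.169 in normoxic cells (SD, n = 3 each). Eif3b held 3.72% ± 0.188 in hypoxia-treated cells and 5.16% ± 0.150 in normoxic cells, and Eif3i 6.15% ± 0.151 in hypoxia-treated cells and 7.38% ± 0.350 in normoxic cells. These shares were separated between the groups, as were those of every other eIF3 subunit except Eif3d and Eif3m, each at the smallest exact permutation p of 0.1 (2-sided). The share of Eif3e overlapped once its pseudogenes were added (exact permutation p = 0.4).

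**Figure D3:**
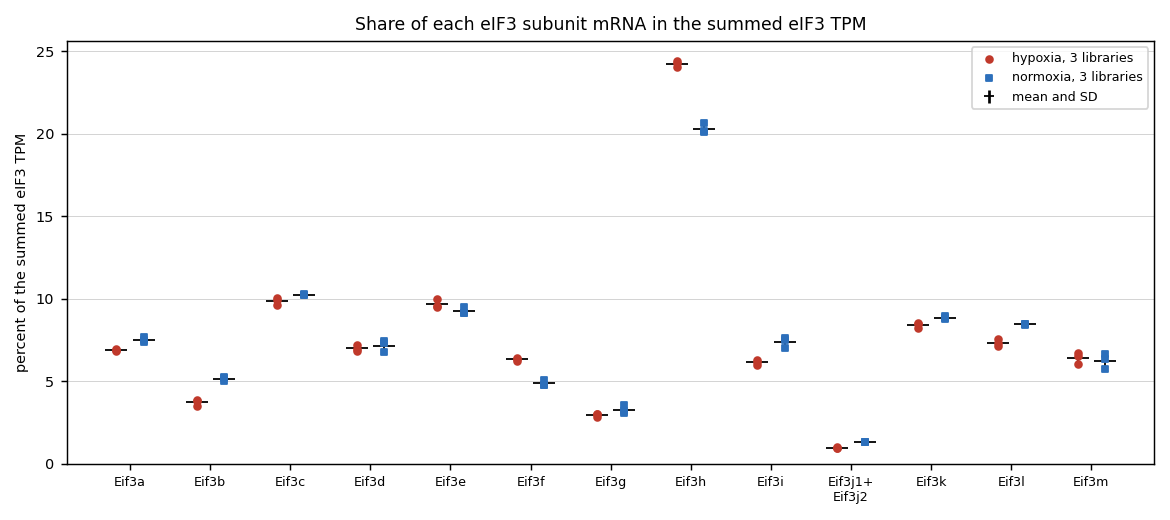
Percent of the summed eIF3 TPM held by each subunit mRNA in the 3 hypoxia-treated libraries (circles) and the 3 normoxic libraries (squares), with mean and SD. Eif3h stood out with 24.2% in hypoxia-treated cells and 20.3% in normoxic cells, and Eif3b, Eif3i and Eif3l held smaller shares in hypoxia-treated cells.

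Of the RNA helicases of the eIF4A family and their helpers, Eif4a2 and Eif4b rose, Eif4a3 fell, and Eif4a1 and Eif4h were not called. Eif4a2 (ENSMUSG00000022884, chromosome 16 of mm10 from 23107444 to 23114136) encodes the less abundant of the 2 cap-complex helicases. It had 290.3, 303 and 331 TPM in hypoxia-treated cells, against 174, 164 and 182 TPM in normoxic cells. The groups were far apart, with a mean ratio of 1.78 (log2 fold change 0.83, standard error 0.06, adjusted p = 7.92e-05 from limma). Eif4a2 also hosts small nucleolar RNAs, each covering at most 3.3% of its exonic bases, and overlaps Rfc4 on the opposite strand over 3.6%. Eif4a1, for the major helicase, had 449.5, 750.3 and 576 TPM in hypoxia-treated cells, against 701, 779 and 645 TPM in normoxic cells. The hypoxia-treated libraries spread widely and the groups overlapped (log2 fold change −0.29, standard error 0.18, adjusted p = 0.211 from limma). Without hypoxia-treated library 2 the gene was called lower (−0.47, adjusted p = 0.0243), and without hypoxia-treated library 1 the value was −0.10 (adjusted p = 0.545).

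The share of Eif4a1 in the pair was 65.2% ± 5.44 in hypoxia-treated cells and 80.3% ± 2.31 in normoxic cells (SD, n = 3 each), with no overlap (exact permutation p = 0.1, 2-sided). Of the Eif4a1 windows 25.4% recur in other genes, chiefly in the processed pseudogene Eif4a-ps4, which was listed at 260.3 ± 11.7 TPM in hypoxia-treated cells and 285 ± 8.50 TPM in normoxic cells (SD, n = 3 each). With the pseudogenes counted as Eif4a1 the share was 73.2% ± 3.48 in hypoxia-treated cells and 85.1% ± 1.60 in normoxic cells (SD, n = 3 each; exact permutation p = 0.1), in the same direction.

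Eif4a3 encodes the helicase of the exon junction complex, which is laid down on spliced mRNA. It had 103, 101 and 107 TPM in hypoxia-treated cells, against 133, 133 and 137 TPM in normoxic cells (log2 fold change −0.38, standard error 0.04, adjusted p = 0.00039 from limma). Eif4b and Eif4h encode RNA-binding proteins that stimulate eIF4A. Eif4b had 679, 713 and 718 TPM in hypoxia-treated cells, against 582, 583 and 569.6 TPM in normoxic cells (log2 fold change 0.28, standard error 0.04, adjusted p = 0.00068 from limma). Eif4h stood at 298 ± 3.13 TPM in hypoxia-treated cells and 306 ± 2.004 TPM in normoxic cells (SD, n = 3 each), a log2 fold change of −0.04 that was not called. With median-ratio scaling Eif4h was called higher (0.11, adjusted p = 0.0412 from limma). The share of Eif4b in the pair was 70.2% ± 0.722 in hypoxia-treated cells and 65.4% ± 0.241 in normoxic cells (SD, n = 3 each; exact permutation p = 0.1, 2-sided).

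The cap-binding proteins and their scaffolds had 1 of 6 tested genes called. Eif4e, which encodes the cap-binding protein itself, had 93.0, 101 and 98.7 TPM in hypoxia-treated cells, against 107, 104 and 108 TPM in normoxic cells. The groups were narrowly apart, and the difference did not pass the test (log2 fold change −0.12, standard error 0.05, adjusted p = 0.0664 from limma). It was called lower on FPKM (−0.17, adjusted p = 0.00822), without mitochondrially encoded genes (−0.15, adjusted p = 0.0196) and with pseudogenes added (−0.13, adjusted p = 0.0319), and stood at 0.02 (adjusted p = 0.652) with median-ratio scaling. Eif4e2 encodes 4EHP, a cap-binding protein described in human cells as taking over cap-dependent translation at low oxygen. Its mRNA had 69.8, 58.0 and 71.3 TPM in hypoxia-treated cells, against 80.9, 84.1 and 58.3 TPM in normoxic cells. Those groups overlapped (log2 fold change −0.15, standard error 0.15, adjusted p = 0.428 from limma), and its share among the eIF4E genes was 40.2% ± 3.38 in hypoxia-treated cells and 40.7% ± 5.17 in normoxic cells (SD, n = 3 each; exact permutation p = 0.8, 2-sided). Without normoxic library 3 Eif4e2 was called lower (−0.32, adjusted p = 0.0427), and without normoxic library 2 its value was −0.06 (adjusted p = 0.795). Eif4e3, the rarest of the 52 genes, was at 1.00 ± 0.399 TPM in hypoxia-treated cells and 1.24 ± 0.303 TPM in normoxic cells (SD, n = 3 each) and its groups overlapped.

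Eif4g1 encodes the main scaffold, which holds eIF4E, eIF4A, eIF3 and the poly(A)-binding protein. It had 143, 161 and 158 TPM in hypoxia-treated cells, against 192, 175 and 198 TPM in normoxic cells (log2 fold change −0.29, standard error 0.07, adjusted p = 0.00978 from limma), a call lost with median-ratio scaling (−0.14, adjusted p = 0.0738). Eif4g2 encodes DAP5, a relative without the eIF4E site, and was the most abundant of the scaffold mRNAs at 259 ± 23.3 TPM in hypoxia-treated cells and 290.4 ± 7.72 TPM in normoxic cells (SD, n = 3 each; log2 fold change −0.17, not called). It was called lower without hypoxia-treated library 1 (−0.23, adjusted p = 0.0149), on FPKM and without mitochondrially encoded genes, and stood at −0.11 (adjusted p = 0.172) without hypoxia-treated library 2. Eif4g3 had the largest standard error of the 52 genes, with 13.5, 22.5 and 7.37 TPM in hypoxia-treated cells, against 27.3, 29.1 and 14.9 TPM in normoxic cells. Those groups overlapped (log2 fold change −0.75, standard error 0.40, adjusted p = 0.159 from limma), and without hypoxia-treated library 2 the gene was called lower (−1.11, adjusted p = 0.0437), while without hypoxia-treated library 3 the value was −0.37 (adjusted p = 0.406). No share of the scaffold genes was separated between the groups, with exact permutation p-values of 0.4 to 0.6.

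The eIF4E-binding proteins compete with eIF4G for eIF4E when they are not phosphorylated. Eif4ebp2 fell, with 46.6, 46.6 and 48.02 TPM in hypoxia-treated cells, against 66.5, 58.7 and 63.1 TPM in normoxic cells (log2 fold change −0.41, standard error 0.06, adjusted p = 0.00117 from limma). Eif4ebp3 was higher, with 20.3, 22.9 and 24.9 TPM in hypoxia-treated cells, against 16.96, 16.7 and 18.7 TPM in normoxic cells (log2 fold change 0.36, standard error 0.09, adjusted p = 0.014 from limma). This level is uncertain, since 67.3% of its exonic bases belong also to the readthrough gene AC115631.1 on the same strand. Eif4enif1 encodes 4E-T, which carries eIF4E into the nucleus and to processing bodies. It had 74.2, 51.7 and 72.7 TPM in hypoxia-treated cells, against 68.2, 58.9 and 70.6 TPM in normoxic cells, with overlapping groups and a log2 fold change of −0.01. Eif4ebp1, for the best known member of the family, lies outside the rule and was higher, at 236 ± 10.4 TPM in hypoxia-treated cells and 195 ± 6.55 TPM in normoxic cells (SD, n = 3 each; log2 fold change 0.27, standard error 0.05, adjusted p = 0.0029 from limma).

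Of the factors that act at the start codon and after it, Eif5b and Eif5a2 fell. Eif5 encodes the protein that triggers GTP hydrolysis by eIF2. It was at 102 ± 8.22 TPM in hypoxia-treated cells and 105 ± 2.54 TPM in normoxic cells (SD, n = 3 each), with overlapping groups and a log2 fold change of −0.04. Eif5b, for the GTPase that joins the subunits, had 33.8, 33.2 and 33.4 TPM in hypoxia-treated cells, against 45.8, 46.2 and 46.2 TPM in normoxic cells (log2 fold change −0.45, standard error 0.04, adjusted p = 0.000252 from limma). The groups were apart, and 16.8% of its exonic bases overlap Rev1 on the opposite strand. Eif5a encodes the hypusine-bearing factor now known mainly for elongation and termination, and had 634, 452 and 622 TPM in hypoxia-treated cells, against 582, 759 and 789 TPM in normoxic cells. Its libraries scattered within both groups, which overlapped (log2 fold change −0.32, standard error 0.16, adjusted p = 0.139 from limma). Eif5a2 (ENSMUSG00000050192, chromosome 3 of mm10 from 28781276 to 28798846), its low-abundance paralog, had 5.41, 5.73 and 5.78 TPM in hypoxia-treated cells, against 9.57, 9.23 and 9.24 TPM in normoxic cells (log2 fold change −0.64, standard error 0.08, adjusted p = 0.000533 from limma). All hypoxia-treated libraries were below all normoxic ones. The share of Eif5a in the pair was 99.0% ± 0.216 in hypoxia-treated cells and 98.7% ± 0.254 in normoxic cells, with overlap (SD, n = 3 each; exact permutation p = 0.3).

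Eif6 (ENSMUSG00000027613, chromosome 2 of mm10 from 155819832 to 155826925) encodes the factor that keeps the large subunit from joining until it is mature. It had 83.0, 83.0 and 81.4 TPM in hypoxia-treated cells, against 152, 136 and 137 TPM in normoxic cells. The hypoxia-treated libraries were nearly equal to each other and below every normoxic library, at 0.583 times their mean (log2 fold change −0.77, standard error 0.05, adjusted p = 5.14e-05 from limma).

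**Figure D4:**
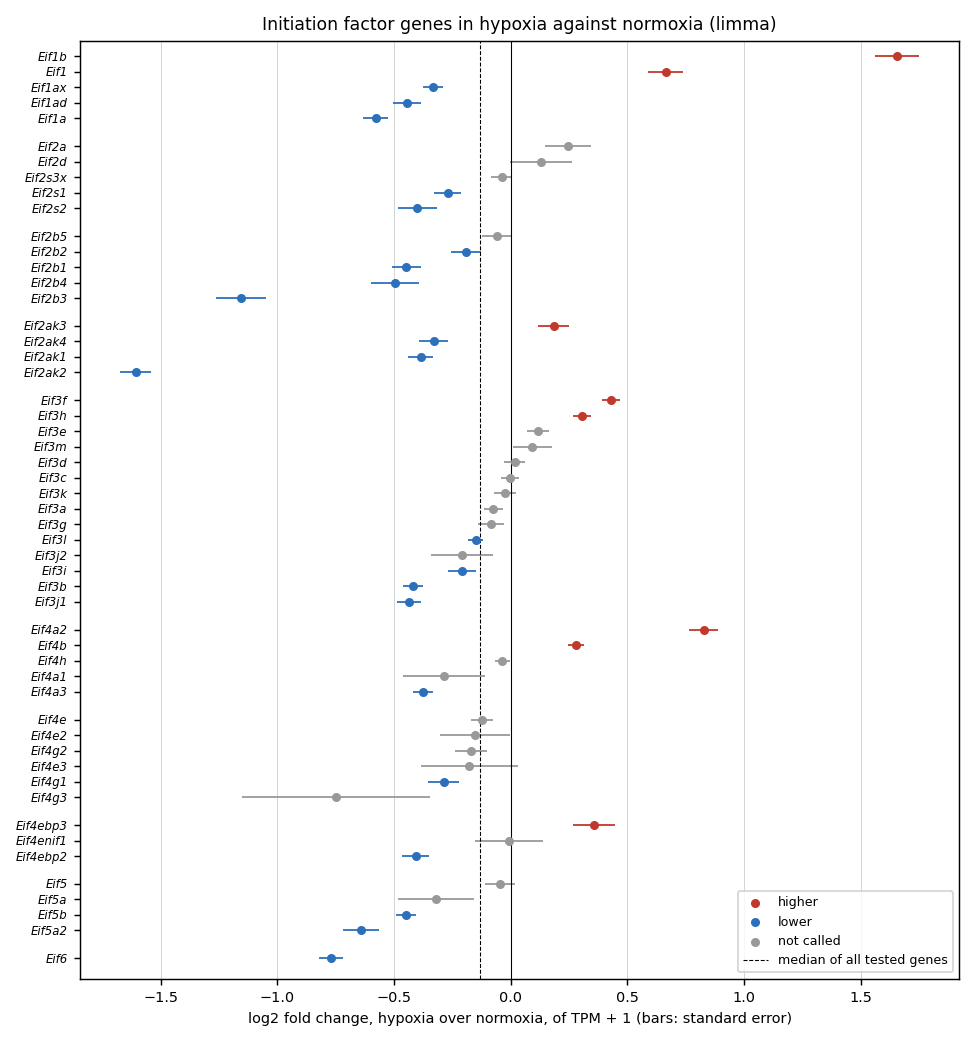
Log2 fold change of the 52 tested genes, hypoxia-treated over normoxic cells, with the standard error from limma, grouped by factor, where color gives the call and the dashed line the median of all tested genes at −0.13. Eif1b and Eif4a2 lie furthest to the right, and Eif2ak2, Eif2b3 and Eif6 furthest to the left among the called genes.

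Over the paralogs and subunits 33 shares were tested in all. Groups did not overlap for 22 of them, each at the smallest exact permutation p of 0.1 and with a Benjamini-Hochberg adjusted p of 0.15, so no share could pass a threshold of 0.05 with 3 libraries against 3. For single genes the groups did not overlap in 62.4% of all tested genes and 66.5% of tested protein-coding genes. Many of the shares are parts of the same sum and depend on each other, so the 33 are not separate results.

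Genes that act on the initiation factors were read from lists and set beside the 54.0% called over all genes, 17.9% higher and 36.1% lower. On the list of eIF4E kinases, mTORC1 effectors and Eif4ebp1, 2 of 8 tested genes were higher and 4 lower. Mknk1, for a kinase of eIF4E, had 15.7 ± 0.731 TPM in hypoxia-treated cells and 25.2 ± 1.72 TPM in normoxic cells (SD, n = 3 each; log2 fold change −0.65, standard error 0.07, adjusted p = 0.000402 from limma). Rps6kb1, for the S6 kinase that phosphorylates eIF4B, had 24.2 ± 1.25 TPM in hypoxia-treated cells and 42.4 ± 5.40 TPM in normoxic cells (SD, n = 3 each; log2 fold change −0.78, standard error 0.10, adjusted p = 0.00073 from limma). Rps6, for its ribosomal substrate, was higher (log2 fold change 0.29, adjusted p = 0.000304 from limma), a call lost with quantile normalization. Among the poly(A)-binding proteins and their partners, which tie the mRNA tail to eIF4G, 3 of 5 were higher and 1 lower. Pabpc1 had 1348 ± 35.5 TPM in hypoxia-treated cells and 994 ± 13.4 TPM in normoxic cells (SD, n = 3 each; log2 fold change 0.44, standard error 0.03, adjusted p = 7.44e-05 from limma), and Paip2, for an inhibitor of it, was also higher (0.46, adjusted p = 0.00115 from limma). Pabpc4 was lower (−0.26, adjusted p = 0.0122 from limma), though not with median-ratio scaling.

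On the list of eIF2 phosphatases and regulators of the kinases 1 of 12 tested genes was higher and 3 lower, a split that became 3 higher and 3 lower with median-ratio scaling and 4 higher and 3 lower with quantile normalization. Ppp1r15b, for the constitutive targeting subunit of the eIF2 phosphatase, had 30.9 ± 2.55 TPM in hypoxia-treated cells and 55.0 ± 0.706 TPM in normoxic cells (SD, n = 3 each; log2 fold change −0.81, standard error 0.07, adjusted p = 0.000111 from limma). The catalytic subunit genes differed in direction, with Ppp1ca at a log2 fold change of −0.27 and Ppp1cb at 0.28 (adjusted p = 0.000404 and 0.00263 from limma). On a list of 8 genes of the stress response to phosphorylated eIF2, none was higher and 7 were lower in the limma test. At an unadjusted p under 0.05, 0 were higher and 7 lower, a threshold at which the share over all tested genes was not counted. The median log2 fold change was −0.66 against −0.13 over all tested genes. These are levels of mRNA, and the phosphorylation of eIF2 was not measured. Chac1, for a glutathione-degrading enzyme, had 17.1 ± 1.28 TPM in hypoxia-treated cells and 77.0 ± 2.77 TPM in normoxic cells (SD, n = 3 each; log2 fold change −2.11, standard error 0.07, adjusted p = 3.03e-06 from limma). Sesn2, for an inhibitor of mTORC1 signalling, had 8.06 ± 0.682 TPM in hypoxia-treated cells and 21.3 ± 0.946 TPM in normoxic cells (SD, n = 3 each; log2 fold change −1.30, standard error 0.08, adjusted p = 3.63e-05 from limma). Atf4, the transcription factor at the head of this response, was named after its values were seen and had 312 ± 15.3 TPM in hypoxia-treated cells and 464 ± 20.7 TPM in normoxic cells (SD, n = 3 each; log2 fold change −0.57, standard error 0.05, adjusted p = 0.000156 from limma). Ddit3, for the transcription factor CHOP, was not called (0.25), and 1 gene of the list was higher with median-ratio scaling, with quantile normalization and among protein-coding genes only.

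Other initiation and recycling factors, outside the Eif names, were 1 higher and 10 lower of 12 tested, with a median log2 fold change of −0.58. Dhx29, for a helicase that helps the small subunit through structured leaders, had 11.1 ± 0.0957 TPM in hypoxia-treated cells and 21.0 ± 1.27 TPM in normoxic cells (SD, n = 3 each; log2 fold change −0.87, standard error 0.07, adjusted p = 9e-05 from limma). Abce1, for the enzyme that splits ribosomes after termination, had 126 ± 3.06 TPM in hypoxia-treated cells and 183 ± 5.83 TPM in normoxic cells (SD, n = 3 each; log2 fold change −0.53, standard error 0.04, adjusted p = 9.65e-05 from limma). Hbs1l, for a rescue factor of stalled ribosomes, was the higher one (0.31, adjusted p = 0.00247 from limma). Of 5 partners of 4EHP 2 were higher and 1 lower. Gigyf1, which joins 4EHP in repressing mRNAs, had 47.4 ± 1.83 TPM in hypoxia-treated cells and 28.2 ± 1.30 TPM in normoxic cells (SD, n = 3 each; log2 fold change 0.73, standard error 0.06, adjusted p = 9.97e-05 from limma), and Rbm4b was higher (0.73, adjusted p = 0.00487 from limma). Zfp598, for a sensor of collided ribosomes, was called lower (−0.21, adjusted p = 0.0314 from limma), a call lost under median-ratio scaling and under quantile normalization.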

How the data were processed

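Poly(A) RNA of 6 GC-2spd libraries had been sequenced in pairs on an Illumina NovaSeq. Per the labels, the authors used cutadapt for trimming, HISAT2 for alignment to mm10 and StringTie for gene levels, in versions not given in the sources used here. The deposited coverage signal is the mean read depth of a gene, and the deposited FPKM is scaled for length and aligned fragments. The TPM deposited by the authors is scaled for length and to a total per library. Transcripts outside the annotation were taken to be part of that total, which was not measured directly. The paper's edgeR test needs counts, so limma was used in its place. Of 43432 gene IDs 42462 were matched to GENCODE mouse release 21, and 20 symbols with several IDs were summed.

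The test was limma 3.58.1 in R 4.3.3 on log2(TPM + 1), for genes whose mean reached 1 TPM (empirical Bayes with a variance trend, 2-sided, Benjamini-Hochberg adjustment over 13749 genes, threshold 0.05). Tested on simulated data for hypoxia against normoxia (200 of 13749 genes changed), the recovery was 53.5% (7 false calls) for a simulated log2 fold change of 0.585, 77% (6 false calls) for 1 and 94% (9 false calls) for 2. In the data far more genes were called (54.0%), and the simulation held no difference in scaling between libraries. Its recovery and false calls therefore do not carry over to the calls above. Shares of summed TPM were compared by exact permutation tests in scipy 1.17.1. Alternatives were a pseudocount of 0.1, no filter or a mean of at least 5 TPM, other scalings, FPKM, no variance trend, a replicate block, leaving out each library, and, added after the data were seen, the pseudogenes that share 75-base windows. The text names, per factor, up to 3 genes per direction with the smallest adjusted p, the most abundant gene and all genes of paralog shares, and, per list, up to 2 genes per direction. Every other initiation factor gene is given by its count or value. Genes and lists were chosen with earlier results of these data known. Sequences are from RefSeq (GRCm38.p6).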

Additional observations from a re-analysis of the deposited data

How the results depend on the processing

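The depth of the libraries is known in aligned bases only, the values hold no counts, and 3 libraries per group limit the precision. Of the 30 called initiation factor genes 22 were called in the same direction under all 17 alternative settings, and 8 (Eif2s1, Eif2b2, Eif2ak3, Eif3h, Eif3i, Eif3j1, Eif3l and Eif4g1) were lost under at least 1, with no change of direction. Median-ratio scaling divided normoxic libraries by 1.04 to 1.07 and hypoxia-treated libraries by 0.936 to 0.975, which moves all fold changes upward. With it 14 of the genes were higher in place of 8, and 17 lower in place of 22. Why the libraries differ in these factors was not tested. Leaving out 1 library at a time gave 7 to 8 higher and 20 to 23 lower genes. Deviations of same-numbered libraries from their group means correlated by 0.026, 0.033 and 0.011, and those of differently numbered libraries by −0.054 to 0.026. Whether same-numbered libraries were handled together is not said, and such correlations cannot decide it. With the replicate number as a block 7 genes were higher and 23 lower, with Eif4g3 called lower (−0.75, adjusted p = 0.0119 from limma). Of the 22 uncalled genes 13 were called under at least 1 alternative and 12 changed sign under at least 1. Those that changed sign were Eif4enif1 (0.14 with median-ratio scaling, 0.086 with quantile normalization, 0.029 over protein-coding genes only, −0.10 to 0.16 with 1 library left out), Eif4e (0.024 with median-ratio scaling), Eif4h (0.11 with median-ratio scaling, 0.0010 over protein-coding genes only), Eif2s3x (0.11 with median-ratio scaling, 0.030 with quantile normalization), Eif3j2 (0.0023 with quantile normalization), Eif3c (0.14 with median-ratio scaling, 0.034 over protein-coding genes only, −0.027 to 0.013 with 1 library left out), Eif3d (5 alternatives, −0.016 to 0.049 with 1 library left out), Eif3k (0.12 with median-ratio scaling, 0.011 over protein-coding genes only, −0.055 to 0.015 with 1 library left out), Eif2b5 (0.087 with median-ratio scaling, 0.046 with quantile normalization, −0.10 to 0.0076 with 1 library left out), Eif5 (0.10 with median-ratio scaling, 0.0093 with quantile normalization, −0.11 to 0.0001 with 1 library left out), and Eif3a (0.072) and Eif3g (0.062), both with median-ratio scaling. Share differences that changed sign with 1 library left out ranged from −3.46 to 1.42 percentage points for Eif4e2, from −0.195 to 0.0248 for Eif4e3, from −2.47 to 0.439 for Eif4g1 and from −0.0721 to 0.387 for Eif3m; the cause was not tested.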

Other observations

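The list counts in this section stand beside 17.9% higher and 36.1% lower over all tested genes. Over tested protein-coding genes these shares were 17.8% and 40.1%. Counts at an unadjusted p under 0.05 have no such share beside them, since it was not counted over all tested genes. Elongation factors, which take over from the initiation factors, were 3 higher and 2 lower of 8 tested, 4 higher and 1 lower with median-ratio scaling, and 1 higher and 1 lower with quantile normalization. Eef1a1, for the factor that delivers aminoacyl-tRNA, had a log2 fold change of 0.34 (adjusted p = 0.0274 from limma), against 0.49 after median-ratio scaling and 0.00 (not called) after quantile normalization. Eef2, for the GTPase that moves the ribosome along, was at 3080 ± 79.9 TPM in hypoxia-treated cells and 2254 ± 3.49 TPM in normoxic cells (SD, n = 3 each; log2 fold change 0.45, standard error 0.03, adjusted p = 5e-05 from limma), and Eef1g, for a subunit of the exchange complex, was higher as well (log2 fold change 0.26, adjusted p = 0.0066 from limma), a call lost with quantile normalization. Eef1e1, for a protein of the multisynthetase complex, fell (−0.77, adjusted p = 0.000258 from limma), and Eefsec, for the selenocysteine factor, was called lower (−0.25, adjusted p = 0.0135 from limma) but not with median-ratio scaling or quantile normalization.

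Enzymes that modify eIF5A and eEF2 were 0 higher and 5 lower of 8 tested with limma (1 higher and 5 lower at an unadjusted p under 0.05), and 1 higher and 4 lower under each of the other scalings, median-ratio and quantile. The diphthamide genes Dph1 and Dph2, whose products begin the modification of eEF2, had the smallest adjusted p-values. Dph1 was at 7.43 ± 0.427 TPM in hypoxia-treated cells and 19.3 ± 1.5 TPM in normoxic cells (SD, n = 3 each; log2 fold change −1.27, standard error 0.08, adjusted p = 4.46e-05 from limma), and Dph2 at 4.68 ± 0.407 TPM in hypoxia-treated cells and 9.51 ± 0.491 TPM in normoxic cells (SD, n = 3 each; log2 fold change −0.89, standard error 0.09, adjusted p = 0.000303 from limma). Of 6 mitochondrial initiation and elongation factors none was higher and 5 were lower in the same test (0 higher and 5 lower at an unadjusted p under 0.05). With median-ratio scaling 4 were lower, and the call of Tufm was lost. Mtif2, the mitochondrial relative of eIF5B, was at 22.8 ± 1.89 TPM in hypoxia-treated cells and 33.7 ± 1.76 TPM in normoxic cells (SD, n = 3 each; log2 fold change −0.55, standard error 0.08, adjusted p = 0.00107 from limma), and Tsfm, a mitochondrial elongation factor, at 21.9 ± 3.00 TPM in hypoxia-treated cells and 36.5 ± 1.46 TPM in normoxic cells (SD, n = 3 each; log2 fold change −0.72, standard error 0.10, adjusted p = 0.0011 from limma).

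Pseudogenes that share sequence with initiation factor genes were listed at levels of their own. Besides Eif4a-ps4, Gm9892 and Gm10157, the eIF3e pseudogene Eif3s6-ps2 was at 37.5 ± 9.07 TPM in hypoxia-treated cells and 44.7 ± 6.83 TPM in normoxic cells (SD, n = 3 each) and was not called, and Gm2223, which shares sequence with Eif2s3x, at 9.11 ± 9.76 TPM in hypoxia-treated cells and 19.4 ± 13.6 TPM in normoxic cells (SD, n = 3 each). Whether these levels are transcripts of the pseudogenes or misplaced reads was not tested.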
